A study of Mus musculus with 6 samples.

Results

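The genes described are the DEAD-box and DEAH-box RNA helicases, measured in E10.5 embryonic mouse hearts. They were chosen by name, as genes whose probe sets carry a single gene symbol starting with Ddx or Dhx, without Ddx3x and Ddx3y, which lie on the sex chromosomes. This gave 50 of the 18193 genes with such a probe set, 34 Ddx and 16 Dhx genes. The 6 Affymetrix arrays, 3 wild-type (WT) and 3 Rnd3 knockout (KO), held heart RNA of C57BL/6N embryos. The knockout is global and was made with a gene trap in Rnd3, also called RhoE, which encodes a small GTP-binding protein that inhibits ROCK1 signalling. The embryos without it are said in the series' design text to be lost soon after this age, and the comparison asks which heart transcripts differ between the genotypes. The design text describes the WT and KO embryos as 3 pairs of littermates, but no label says which arrays share a litter, or how many hearts went into each. The fit is therefore unpaired, and p-values measure the spread between these arrays, litters included. A whole heart holds several cell types, and fewer cells of a type cannot be told apart from less RNA per cell.

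DEAD-box and DEAH-box proteins are enzymes that use ATP to pull apart short RNA duplexes or to strip proteins from RNA. DEAD-box members mostly open duplexes locally, while DEAH-box members walk along a strand from its 3′ side. They drive the spliceosome through its steps, process ribosomal RNA in the nucleolus, release mRNA from the nuclear pore, and control translation and decay. A few sense viral RNA or act in germ cells. A growing embryonic heart makes ribosomes and spliced mRNA at a high rate, and most members are expressed in nearly every cell type.

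Values are MAS5 signals, a brightness per probe set on a linear scale that cannot be compared between genes. For each gene the probe set with the highest mean log2 signal was used. It was tested if at least 3 of the 6 arrays were above a low-signal limit, set per array at the 40th percentile of the non-control probe sets (44.5 to 52.8). That left 47 of the 50 members among 12712 genes. Of the 47, 45 were above the limit on all 6 arrays. Ddx23 missed it on 1 WT array, and Ddx4 was above it on 1 WT array and 2 KO arrays. The innate sensor genes Ddx60 and Dhx58 and the testis-expressed Ddx43 were not tested. Ddx60 read 17.5, 36.1 and 24.2 in WT hearts and 35.5, 39.2 and 35.2 in KO hearts. Dhx58 read 22.4, 16.8 and 45.6 in WT hearts and 47.4, 31.8 and 54.0 in KO hearts, where only KO array 3 was above the limit. Ddx43 read 22.7, 21.0 and 18.1 in WT hearts and 6.45, 23.2 and 11.5 in KO hearts. Ddx43 and Ddx60 were below the limit on all 6 arrays.

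The targeted gene itself checks the labels. Rnd3 read 909, 954 and 862 in WT hearts and 5.89, 12.3 and 121 in KO hearts, so KO array 3 kept a signal above the limit. The arrays also differed in sex-linked transcripts. Xist, made by the inactive X of female cells, read from 10251 to 12474 in WT but 539, 8884 and 28.4 on KO arrays 1, 2 and 3, and the Y-linked Uty read from 105 to 192 in WT hearts and 594, 297 and 532 in KO hearts. No member lies on X or Y, the 47 being spread over 15 autosomes. Cardiomyocyte markers were bright on every array: the summed signal of 16 tested markers was 360450 to 391696 in WT and 351227 to 380565 in KO, and none passed the test. The KO arrays lay entirely below the WT arrays for 4 of the 16 (25%, all genes 15.5%). They lay entirely above for 1 (6.25%, all genes 10.8%). Markers of liver and yolk sac endoderm tended to be dimmer in KO hearts. Of 9 tested, 2 (Alb and Habp2) fell and all 9 had a negative difference. Their summed signals overlapped, at 1813 to 7718 in WT and 506 to 2165 in KO. Habp2 was below the low-signal limit on every KO array, at 10.4, 12.6 and 9.51. Alb was above it only on KO array 1, at 51.9, and passed narrowly (limma adjusted p = 0.049997). The sizes of these 2 falls therefore rest mostly on KO signals below the limit. Of 7 macrophage markers, Lyz2 rose, and the summed signal was 895 to 956 in WT and 929 to 2159 in KO. The ratio of 3′ to 5′ Gapdh signal, which reflects RNA integrity, was 1.095 to 1.13 in WT and 0.939 to 0.993 in KO. The part of the sex-linked transcripts, of these markers and of RNA integrity in the values below was not tested gene by gene, apart from a fit with Xist as a covariate.

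No helicase gene passed the test for a difference between KO and WT hearts. With limma over all 12712 genes and a Benjamini-Hochberg adjusted p of 0.05 as the threshold, 0 of 47 members were higher and 0 lower, against 0.787% and 0.488% of all genes. The lowest adjusted p among members was 0.0654, for Ddx41, a spliceosomal helicase. At an unadjusted p below 0.05, 3 members were higher (6.38%) and 5 lower (10.6%), against 8.54% and 11.8% of all genes. The 5 lower ones were Ddx41, Ddx11, Dhx35, Ddx46 and Dhx38, and the 3 higher ones Ddx50, Ddx10 and Ddx20. On the probe set used for each gene, the estimates of 2 members, Ddx4 and Ddx11, were beyond 1.5-fold and 0 beyond 2-fold. Some further probe sets, such as a dimmer one of Dhx9 with -1.18 to -0.31, had intervals reaching beyond 2-fold. The 95% limma intervals of 45 members lay inside a 2-fold difference in either direction and those of 34 inside a 1.5-fold one. The other 2, Ddx4 and Ddx23, were the members closest to the low-signal limit.

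The members' median difference was slightly lower than that of all genes, and their share above 0 was close to that of all genes. The median log2 difference, KO minus WT, was -0.11 over the 47 members and -0.04 over all genes. Of the 47, 19 were above 0 (40.4%), against 43.8% of all genes. The KO arrays lay entirely below the WT arrays for 10 members (21.3%, all genes 15.5%) and entirely above for 3 (6.38%, all genes 10.8%). This split depended on scaling. With each array centred on the median of all its probe sets the counts were 4 lower and 6 higher (all genes 8.83% and 11.4%), and with the median of the tested genes 7 and 7 (10.8% and 14.5%). Leaving out KO array 1 gave 18 lower (38.3%, all genes 23.9%) and 6 higher (12.8%, all genes 17.2%). Leaving out any other single array gave 11 to 13 lower (23.4% to 27.7%, all genes 19.5% to 21.6%) and 4 to 6 higher (8.51% to 12.8%, all genes 14.1% to 15.7%). By symbol, 32 Ddx genes had a median of -0.01 with 16 above and 16 below 0, and 15 Dhx genes had -0.15 with 3 above and 12 below.

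**Figure D1:**
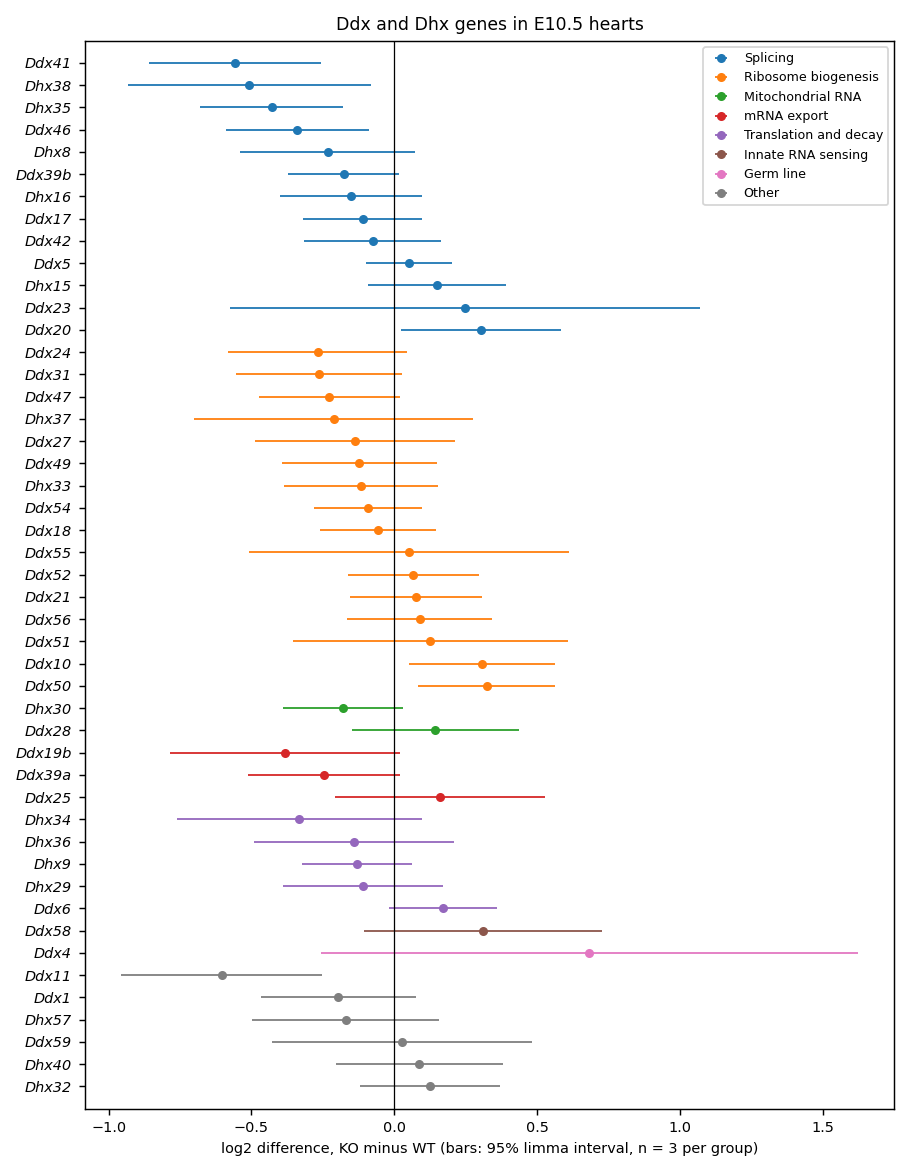
Log2 difference in MAS5 signal, KO minus WT, of the 47 tested Ddx and Dhx genes (horizontal axis), grouped and coloured by role; points are estimates and bars 95% limma intervals, n = 3 per group. The intervals of 8 members leave out 0, with Ddx41, Ddx11, Dhx35, Ddx46 and Dhx38 on the lower and Ddx50, Ddx10 and Ddx20 on the higher side, and none passed the adjusted threshold.

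The members' deviations were most negative on KO array 2. The members' median deviation from the mean of the WT arrays was 0.0021 on KO array 1, -0.23 on KO array 2 and -0.04 on KO array 3, on the log2 scale, while all genes had -0.01, -0.03 and -0.04. On the WT arrays it lay between -0.01 and 0.03. KO array 2 was the lowest of the 6 arrays for 20 of the 47 members (42.6%), against 26.3% of all genes. KO array 1 was the lowest for 3 members (6.38%, all genes 11.0%). Without KO array 2 the median of the members was -0.05 (all genes -0.03), and without KO array 1 it was -0.13 (all genes -0.05). KO array 2 was also the KO array with Xist nearest to the WT level, at 8884. With Xist as a covariate the members' median was -0.17 (all genes -0.02). The part of sex-linked differences in the members' values on KO array 2 itself was not tested.

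**Figure D2:**
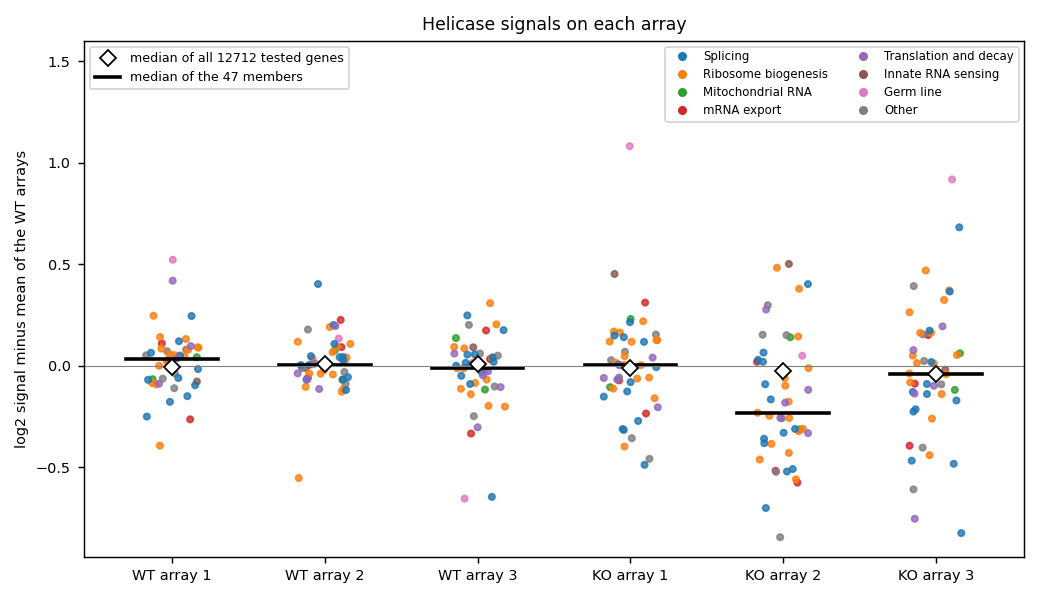
Log2 signal of each of the 47 members minus its mean over the WT arrays (vertical axis) on the 6 arrays, with points coloured by role, black bars at the members' median and diamonds at the median of all 12712 tested genes. On KO array 2 the members' median is -0.23 against -0.03 for all genes, while on KO arrays 1 and 3 the bar and the diamond lie close together.

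Leaving out KO array 1, the KO array closest to the WT arrays over all genes (r with WT array 1 of 0.9799, against 0.970 for KO array 2 and 0.9739 for KO array 3), changed the calls. With KO arrays 2 and 3 alone, 1 member was higher and 3 lower (2.13% and 6.38% of 47), against 3.60% and 3.61% of all genes. These were Ddx50 (0.43, SE 0.10, adjusted p = 0.0368), Ddx11 (-0.73, SE 0.16, adjusted p = 0.0292), Dhx35 (-0.49, SE 0.13, adjusted p = 0.0428) and Ddx41 (-0.59, SE 0.16, adjusted p = 0.0466), all by limma. Under the other alternatives, including each other array left out, no member passed.

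Of the 10 members whose KO arrays all lay below the WT arrays, 6 were splicing helicases. This role, like the others, was assigned with earlier results of these data known. Of 13 splicing members tested, 0 passed the test, 9 had a negative and 4 a positive difference, and the median was -0.15. The KO arrays lay entirely below the WT arrays for 6 of them (46.2%, all genes 15.5%), namely Ddx41, Dhx35, Ddx46, Dhx38, Ddx39b and Dhx8, and entirely above for none (all genes 10.8%). With each array centred on the median of all its probe sets, the count was 3 of 13 (23.1%, all genes 8.83%). Ddx41, found in the catalytic spliceosome and known in people as a gene of inherited leukaemia risk, read 341, 372 and 324 in WT hearts and 246, 212 and 247 in KO hearts. Its log2 difference was -0.56 (SE 0.14, 95% interval -0.86 to -0.26, limma adjusted p = 0.0654, n = 3 per group), and every KO array was below every WT array. Dhx35, another protein of the catalytic spliceosome, read 569.5, 547 and 592 in WT hearts and 458, 400.0 and 412 in KO hearts (-0.43, SE 0.11, limma adjusted p = 0.0782). Its groups were also apart, with little spread inside either. Ddx46, the counterpart of yeast Prp5, which helps U2 bind the branch site, read 899, 820.3 and 862 in WT hearts and 712, 599 and 735 in KO hearts (-0.34, SE 0.11, limma adjusted p = 0.132). Ddx41 and Ddx46 lie 98.3 kb apart on chromosome 13 in GRCm38.

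The other DEAH-box ATPases of the spliceosome had differences of both signs. Dhx38, the counterpart of Prp16, which remodels the spliceosome between its chemical steps, read 214, 182 and 197 in WT hearts and 158, 151 and 111 in KO hearts (-0.51, SE 0.19, limma adjusted p = 0.177). Dhx8, the counterpart of Prp22, which releases the spliced mRNA, read 255, 280.3 and 283 in WT hearts and 245, 217 and 235 in KO hearts (-0.23, SE 0.14). For both, no KO array reached the WT range, and neither passed. Dhx16, the counterpart of Prp2, had -0.15 (SE 0.11), with KO array 1 inside the WT range. Dhx15, the counterpart of Prp43, which takes spent spliceosomes apart, read 9544, 11381 and 13478 in WT hearts and 13171, 11872 and 12797 in KO hearts (0.15, SE 0.11), with the KO arrays inside the WT range. A second Dhx15 probe set gave 6080.4, 6092 and 6208 on the WT arrays and 7408, 8798 and 8387 on the KO arrays. In a fit over all probe sets it had 0.42 (SE 0.08, limma adjusted p = 0.0524), the smallest adjusted p of any probe set of a member, with the groups apart.

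Among the remaining splicing members, Ddx20 is Gemin3 of the SMN complex, which assembles spliceosomal snRNPs. It read 530.5, 676 and 569 in WT hearts and 649, 778 and 758 in KO hearts (0.30, SE 0.13, limma adjusted p = 0.215), where KO array 1 lay inside the WT range. Ddx39b, which acts in U2 recruitment and in mRNA export, read 8882, 9569 and 9355 in WT hearts and 8756, 7217 and 8703 in KO hearts (-0.18, SE 0.09). The groups were apart, though KO arrays 1 and 3 were close to WT array 1. The p68 and p72 paralogs Ddx5 and Ddx17, which also assist microRNA processing and transcription, had 0.05 (SE 0.07) and -0.11 (SE 0.09). Ddx42 of the U2 snRNP had -0.08 (SE 0.11), and the dim Ddx23, which exchanges U1 for U6 at the 5′ splice site, had 0.25 (SE 0.37).

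The nucleolar helicases of ribosome biogenesis split both ways. Of 16 tested, 0 passed, 7 were above and 9 below 0, with a median of -0.07, and the KO arrays lay apart from WT in 2 higher members (12.5%, all genes 10.8%) and 1 lower member (6.25%, all genes 15.5%). Ddx50, a nucleolar paralog of Ddx21, read 2183, 2121 and 1912 in WT hearts and 2246, 2889.7 and 2674 in KO hearts (0.32, SE 0.11, limma adjusted p = 0.134). Every KO array was above the WT range, KO array 1 by little. Ddx21 itself, which acts in rRNA transcription and processing and lies 13.5 kb from Ddx50 on chromosome 10, read 1509.9, 1397 and 1353 in WT hearts and 1588, 1324 and 1587 in KO hearts (0.08, SE 0.11). Its groups overlapped, with KO array 2 lowest. Ddx10, of the small-subunit processome, read 819, 839 and 672 in WT hearts and 899.5, 1005 and 968 in KO hearts (0.31, SE 0.12, limma adjusted p = 0.174), with the groups apart. Its other probe set had the opposite sign (-0.29, SE 0.18), and averaging both gave 0.0097. Ddx47, which acts early in pre-rRNA processing, read 1102, 1028 and 1050.4 in WT hearts and 979.8, 787 and 962 in KO hearts (-0.23, SE 0.11, limma adjusted p = 0.280), again apart but in the other direction.

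The other 13 nucleolar members had overlapping groups. On the lower side were Ddx24 (-0.27), Ddx31 (-0.26), Dhx37 (-0.21), which frees the U3 snoRNA, Ddx27 (-0.14), Ddx49 (-0.12), Dhx33 (-0.12), Ddx54 (-0.09) and Ddx18 (-0.06). On the higher side were Ddx51 (0.13), Ddx56 (0.09), Ddx52 (0.07) and Ddx55 (0.05), beside Ddx21. Ddx54, a factor of the large subunit with tight arrays, read 3271, 3502 and 3698 in WT hearts and 3346, 3083 and 3385 in KO hearts.

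**Figure D3:**
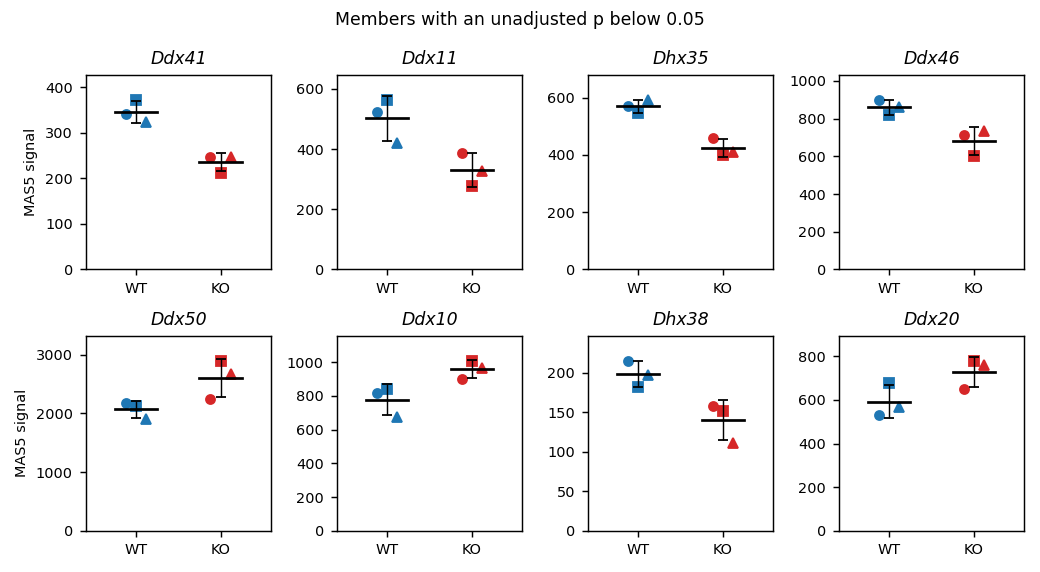
MAS5 signal (vertical axis, from 0) of the 8 members with an unadjusted limma p below 0.05; circles, squares and triangles are replicates 1, 2 and 3, black bars the group mean and thin bars the SD (n = 3). The KO points of Ddx41, Ddx11, Dhx35, Ddx46 and Dhx38 lie below all WT points and those of Ddx50 and Ddx10 above them, while Ddx20 overlaps.

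The mRNA export members were few. Ddx19b, the Dbp5 type helicase that frees mRNA from proteins at the nuclear pore, read 259, 280.4 and 190.2 in WT hearts and 204, 168 and 183 in KO hearts (-0.38, SE 0.18, limma adjusted p = 0.266), and the groups overlapped through WT array 3. It has a near-identical paralog, Ddx19a, so its signal is less certain. Ddx39a, a paralog of Ddx39b in the export machinery, read 9170.3, 8639.8 and 9208 in WT hearts and 8560.5, 6039.7 and 8466 in KO hearts (-0.25, SE 0.12, limma adjusted p = 0.278). The KO values were all below WT, but only KO array 2 was far below, and without it the difference was -0.081. Of 4 further Ddx39a probe sets 2 were lower (-0.20 and -0.17) and 2 higher (0.024 and, on a dim one, 1.05), and averaging all gave 0.092. Ddx25, known for its role in spermatids, read 181, 231 and 245 in WT hearts and 269, 220.0 and 241 in KO hearts (0.16, SE 0.17), with overlap.

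In mitochondrial ribosome assembly, Dhx30 read 3202, 3196 and 3684 in WT hearts and 3116, 2697 and 3087 in KO hearts (-0.18, SE 0.10, limma adjusted p = 0.321), just below the WT range. Ddx28, of the large mitochondrial subunit, read 284, 291 and 254 in WT hearts and 324, 304 and 288 in KO hearts (0.14, SE 0.13), and the groups overlapped.

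Among helicases of translation and decay, Ddx6 is the core protein of P-bodies and couples repression to decapping. It read 4273, 4198 and 4029 in WT hearts and 4282, 5045 and 4764 in KO hearts (0.17, SE 0.09, limma adjusted p = 0.291), with KO array 1 only just above WT. Dhx34, a factor of nonsense-mediated decay, read 253, 307 and 249.7 in WT hearts and 258, 237 and 159 in KO hearts (-0.33, SE 0.20), where KO array 3 alone was far from WT. Dhx9, or RNA helicase A, which unwinds long duplexes, read 7475, 6668 and 6857 in WT hearts and 7002, 5851 and 6355 in KO hearts (-0.13, SE 0.09), with overlap. Dhx36, which opens G-quadruplexes, had -0.14 (SE 0.16), with WT array 1 highest at 1566. Dhx29, which helps the small ribosomal subunit through structured leaders, had -0.11 (SE 0.13). None of these 5 passed, and the median was -0.13.

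The innate sensor Ddx58, also known as RIG-I, read 148, 154 and 166 in WT hearts and 213, 220.4 and 154 in KO hearts (0.31, SE 0.19, limma adjusted p = 0.390), where KO array 3 stayed at the WT level. The germ cell gene Ddx4, the mouse Vasa, was close to the low-signal limit at 68.4, 52.3 and 30.3 in WT and 101, 49.3 and 90.0 in KO. Its difference of 0.68 had the widest interval of any member, from -0.26 to 1.62, and rests on values around the limit. Over the alternatives it ran from 0.21 with the Xist covariate to 0.999 without KO array 2. It was 0.45 with signals floored at the limit and 0.35 without WT array 3.

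The last set joins members of other or less known function. Ddx11 is, despite its symbol, an iron-sulfur DNA helicase of sister chromatid cohesion. It read 523, 563 and 419 in WT hearts and 389, 277 and 326 in KO hearts (-0.60, SE 0.16, 95% interval -0.96 to -0.25, limma adjusted p = 0.0781), the largest negative difference of any member, and the groups were apart. A second Ddx11 probe set gave 196, 208 and 184 on the WT arrays and 166, 121 and 157 on the KO arrays (-0.42, SE 0.18), apart in the same direction. Ddx1, of the tRNA ligase complex, read 5687, 5791 and 6041 in WT hearts and 5947, 4063 and 5477 in KO hearts (-0.20, SE 0.12), with KO array 1 at the WT level. Dhx57 read 486, 459 and 463 in WT hearts and 522, 392 and 355 in KO hearts (-0.17, SE 0.15), with KO array 1 above all WT arrays and the other KO arrays below. Dhx32 (0.12), Dhx40 (0.09) and Ddx59 (0.03) had overlapping groups.

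Other probe sets of the same genes did not always give the same sign. Of the 47 tested members, 26 had 45 further probe sets past the low-signal filter, and 28 of these had the sign of the brightest one and 17 the opposite. None of the members' 92 tested probe sets passed in a fit over 23339 probe sets, where 147 did. Both further Ddx39b probe sets were lower in KO, with the groups apart (-0.35, SE 0.10, and -0.41, SE 0.12). A dimmer Dhx9 probe set gave 1603, 1684 and 1238 on the WT arrays and 1086, 628 and 1044 on the KO arrays (-0.74, SE 0.20), a wider gap than on its brightest one. Of 4 further Ddx46 probe sets, 3 were lower (-0.29, -0.24 and -0.23) and the dimmest was higher (0.37), with 92.0, 96.5 and 71.3 in WT and 117, 116 and 99.4 in KO. This was 1 of 3 cases where the brightest and a further probe set had groups apart but in opposite directions.

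The other cases were Ddx6 and Dhx30. A second Ddx6 probe set gave 3196, 2802 and 2832 on the WT arrays and 2382, 2640.2 and 2582 on the KO arrays (-0.21, SE 0.09), below WT on every KO array, while another had 0.30 (SE 0.13). A second Dhx30 probe set gave 1849.5, 1883 and 1707 on the WT arrays and 1895, 2009 and 2299 on the KO arrays (0.19, SE 0.10). Another had the sign of the brightest one, at -0.40 (SE 0.09, limma adjusted p = 0.0696). Ddx17 had a further bright probe set at -0.31 (SE 0.08), with 5204, 5113 and 5104 in WT and 3996, 4415 and 4081 in KO. A dim Ddx17 probe set was apart the other way (0.39, SE 0.19), with 117, 128 and 147.6 in WT and 193, 174 and 148.0 in KO. Ddx18 had a further bright probe set at 0.39 (SE 0.11), with 1701, 1589 and 1433 in WT and 1936, 2349 and 1931 in KO, against -0.06 on its brightest one. The brightest probe set was of a kind that can bind transcripts of other genes (names ending in x_at or s_at) for 10 of the 47 members, Ddx39a, Ddx5, Ddx17 and Dhx30 among them. Which transcripts each probe set covers was not analysed here.

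**Figure D4:**
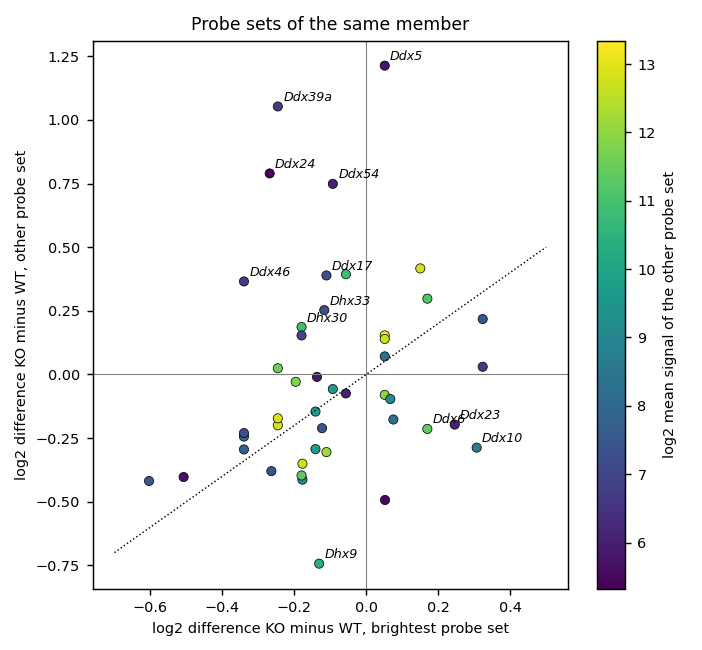
Log2 difference, KO minus WT, of 45 further probe sets (vertical axis) against that of the brightest probe set of the same member (horizontal axis), coloured by mean log2 signal; the dotted line marks equal values. In all, 28 points lie in the quadrants of equal sign and 17 in those of opposite sign.

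Promoters are shown for the members that passed without KO array 1, a choice made after their values were seen. RefSeq's promoter table (GRCm38.p6) listed 3 of these 4. Each window runs from 250 bases before to 50 after a transcript start, 5′ to 3′ on the gene's strand. Capitals mark matches on either strand to 5 motifs. The TATA box was searched as TATAAA and the CCAAT box by the letters of its name. The E-box was searched as CACGTG, which reads the same on both strands. The GC box was searched as GGGCGG, and the core bound by ETS factors as CCGGAAG. None of these motifs holds another, though matches may overlap. The first window is that of Ddx41 (chr13:55536609-55536908, minus strand), the next the first of 2 listed for Ddx50 (chr10:62651169-62651468, minus strand) and the last that of Dhx35 (chr2:158794557-158794856, plus strand).
Ddx41: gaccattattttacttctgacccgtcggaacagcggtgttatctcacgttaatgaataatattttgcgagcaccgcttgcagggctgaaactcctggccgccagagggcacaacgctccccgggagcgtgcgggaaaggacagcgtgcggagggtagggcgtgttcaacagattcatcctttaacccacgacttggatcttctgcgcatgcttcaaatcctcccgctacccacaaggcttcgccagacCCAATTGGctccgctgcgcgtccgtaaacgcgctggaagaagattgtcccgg
Ddx50: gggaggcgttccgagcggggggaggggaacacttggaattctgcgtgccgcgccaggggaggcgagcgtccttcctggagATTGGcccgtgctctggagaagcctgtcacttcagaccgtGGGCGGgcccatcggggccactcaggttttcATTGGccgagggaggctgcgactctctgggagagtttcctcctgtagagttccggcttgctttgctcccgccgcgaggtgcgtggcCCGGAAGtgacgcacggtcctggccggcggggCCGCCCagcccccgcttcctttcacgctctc
Dhx35: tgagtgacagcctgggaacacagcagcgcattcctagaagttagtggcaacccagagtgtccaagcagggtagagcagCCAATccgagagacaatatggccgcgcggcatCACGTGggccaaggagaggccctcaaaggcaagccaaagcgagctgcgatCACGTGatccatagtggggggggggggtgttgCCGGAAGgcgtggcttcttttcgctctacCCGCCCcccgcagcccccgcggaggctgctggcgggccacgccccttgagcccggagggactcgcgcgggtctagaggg
All 3 windows shown held a CCAAT box. That of Ddx41 held 2 CCAAT matches, one per strand and overlapping, and none of the other motifs. That of Ddx50 held 2 CCAAT boxes, 2 GC boxes and 1 ETS core, and that of Dhx35 1 CCAAT box, 2 E-boxes, 1 GC box and 1 ETS core. The second Ddx50 window (chr10:62649704-62650003), not shown, held 2 TATA boxes and none of the other motifs. Over the 55 windows of the 44 members in the table, 38.2% held the ETS core, against 16.3% of 13157 windows of tested genes and 8.86% of all 32851. The GC box was in 58.2% (tested genes 61.5%, all 35.7%), the CCAAT box in 47.3% (37.3% and 37.4%), the E-box in 12.7% (9.72% and 7.15%) and the TATA box in 10.9% (7.56% and 13.6%). A match is a run of letters, not a measured binding site.

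Genes that work with the helicases were read from 6 lists. Over 223 tested genes of these lists that are not members, 0 rose and 5 fell (2.24%, all genes 0.488%), with a median of -0.10 against -0.04 for all genes. Median centring left 0 of the 5 falls with the median of all probe sets and 4 falls, with 4 rises, on that of the tested genes. Without KO array 1, 9 of the 223 were higher and 19 lower, beside 3.60% and 3.61% of all genes. Without KO array 2 there was 1 fall, and without KO array 3 or any single WT array there were 0. Among 17 related RNA helicases, Dicer1, the microRNA-producing RNase with a helicase domain of its own, fell from 1794, 1648 and 1879 in WT to 1191, 1116 and 1179 in KO (-0.61, SE 0.10, limma adjusted p = 0.0344). Upf1, the helicase of nonsense-mediated decay, had -0.57 (SE 0.18, adjusted p = 0.121) and the translation factor Eif4a2 -0.18. The median of this list was -0.06. In mRNA decay 2 of 36 fell, the decapping enzyme gene Dcp2, a partner of Ddx6 (-0.56, SE 0.10, limma adjusted p = 0.0374), and Cnot2 of the deadenylase complex (-0.43, SE 0.09, limma adjusted p = 0.0474), with Cnot3 at -0.56 (adjusted p = 0.0542). The list had a median of -0.12, with 28 of 36 below 0.

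In ribosome biogenesis 2 of 79 fell, the snoRNP core gene Nop56 (-0.51, SE 0.10, limma adjusted p = 0.0389) and the processome GTPase gene Bms1 (-0.49, SE 0.10, limma adjusted p = 0.0446), while Rrp15 had 0.55 (adjusted p = 0.0542). The median was -0.12 and 55 of 79 were below 0. None of 51 spliceosome proteins passed, and 24 were above and 27 below 0 with a median of -0.0023. Their KO arrays lay entirely below the WT arrays for 9 (17.6%, all genes 15.5%) and entirely above for 9 (17.6%, all genes 10.8%). Over all 223 partner genes these counts were 57 lower (25.6%) and 27 higher (12.1%). Among the spliceosome proteins, Prpf3 had -0.50, Snrpb2 0.39 and Sf3b6 0.29. None of 26 export genes passed, with Eny2 at 0.40, Thoc3 at 0.37 and Nup62 at -0.30 and a median of -0.19. None of 15 RNA sensing genes passed either (median -0.12), Trim25 and Irf3 having -0.32 and -0.31 and Adar -0.30.

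**Figure D5:**
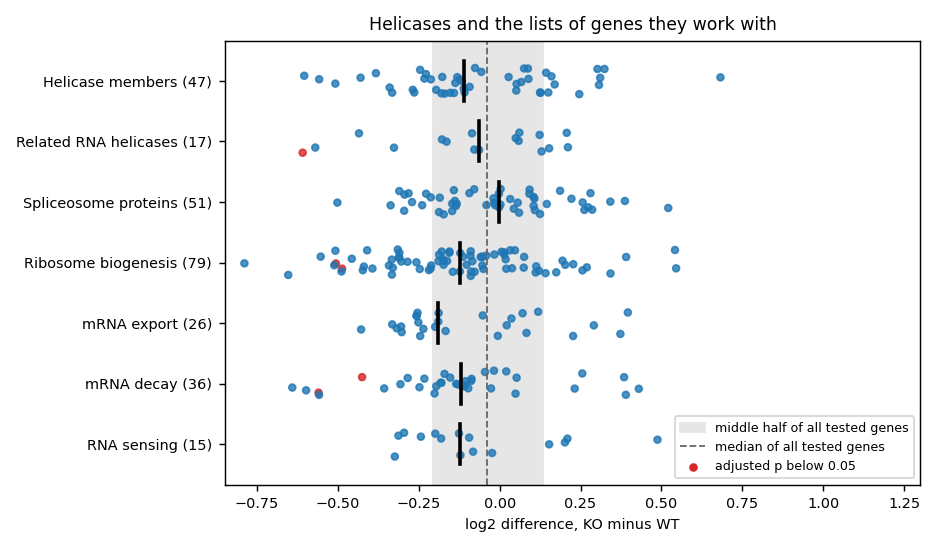
Log2 difference, KO minus WT (horizontal axis), of the 47 helicase members and of 6 lists of genes that work with them, with the number tested in brackets; black bars are medians, red points have an adjusted p below 0.05, and the grey band and dashed line give the quartiles and median of all tested genes. No member and 5 partner genes are red, all of them below 0.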

How the data were processed

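Per the submitters' processing notes, the deposited signal intensity values come from MAS5 in Affymetrix Expression Console, linear and 1 per probe set. The sources used here give no version or settings. Each array had a mean of 500.00 once 2% was trimmed from either end, and the arrays were not scaled again. The 64 control probe sets were left out. Of the other 45037, 34945 had 1 gene symbol in the platform's annotation, 932 several and 9160 none here.

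Signals were taken to log2 and fitted with limma 3.58.1 (lmFit, eBayes with an intensity trend) in R 4.3.3, KO minus WT, over 12712 genes with Benjamini-Hochberg adjustment. "Rose" and "fell" mean an adjusted p below 0.05. The fit was tested on simulated data, drawn as independent normal values without array, litter or sex effects. That test cannot show how the fit behaves where such effects are present. The members, the roles and the lists were chosen with earlier results of these data known. The naming rule gave array values for the 3 members of each role with the lowest p and up to 3 genes of each partner list. Dhx38, Dhx8, Dhx15, Ddx20, Ddx39b, Ddx21, Ddx54 and the further probe sets were added after their values were seen. Protein stretches that the rule also asked for were not used here. Alternatives covered scaling, filter, floor, probe set choice, intensity trend, replicate block, an Xist covariate and each array left out. Figures were drawn with matplotlib 3.10.9. The number of arrays, 3 per group, limits the precision.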

Additional observations from a re-analysis of the deposited data

How the results depend on the processing

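Of 302 refitted values of the 19 named members, 297 kept their direction and side of the threshold. Another 4 newly passed without KO array 1 and 1 reversed (Ddx39a with probe sets averaged, 0.092). As none had passed, being kept required only an unchanged sign and no pass, whatever the size. Ddx10 at 0.0097 with averaging and Dhx34 at -0.016 with the Xist covariate were thus counted as kept. On further probe sets 7 of 19 values reversed: Dhx30 (0.19 and 0.15), Ddx39a (0.024 and 1.05), Ddx10 (-0.29), Ddx46 (0.37) and Ddx6 (-0.21). Members called were 0 higher and 0 lower in every setting but leaving out an array (0 to 1 higher, 0 to 3 lower). The members' median ran from -0.17 with Xist as a covariate to -0.05. Over all genes, 100 higher and 62 lower became 1 and 0 without the filter, 180 and 111 with the stricter filter, 0 and 0 with averaged probe sets, 0 and 1 with no intensity trend, and 3 and 3 with the Xist covariate. Median centring gave 16 lower, and centring on the tested genes, added after seeing the data, 253 higher. Leaving out 1 array gave 0 to 457 higher and 0 to 459 lower. Partner genes, 0 higher and 5 lower, had 1 higher with quantile normalization, 2 with the stricter filter and 4 with tested-gene centring, and 0 lower with median centring, no filter, averaging, no trend or the Xist covariate; leaving out 1 array gave 0 to 9 and 0 to 19. Members with groups apart, 3 higher and 10 lower, were 5 higher with quantile normalization, 6 and 4 with median centring, 7 higher with tested-gene centring and 1 higher with averaging, and 4 to 6 and 11 to 18 without 1 array (all genes 14.1% to 17.2% and 19.5% to 23.9%). Splicing members, 0 and 6, had 1 higher with averaging or tested-gene centring, 3 lower with median centring, and 0 to 1 and 6 to 7 without 1 array. These counts of groups apart were refitted after seeing the data; the causes were not tested.

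With the replicate number as a block (replicate block), 117 genes were higher and 72 lower, with 0 members and 5 partner genes, all lower, past the threshold; it changed no call of a member. Arrays with the same number correlated at 0.0182, 0.0573 and 0.0150 in their deviations from the group means. Arrays with different numbers ran from -0.0371 to 0.0206, the highest being WT array 1 with KO array 3. Such small values cannot decide whether the numbers mark litters, and no label says so. The main fit was therefore left unpaired.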
